A study of Mus musculus with 16 samples.

Results

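*Dppa3*, *Olfml2b*, *Rin1* and *Serpinb6a* are 4 protein-coding genes whose transcripts differed strongly between mouse hepatocytes cultured with and without itaconate and which lie outside the interferon response. They were picked for the size of those itaconate differences, so these differences are given below as a description with no test. The 4 genes were found by symbol among 55450 genes with an expected count, and all 4 were among the 11675 genes that reached a mean of 1 CPM (counts scaled by library size) over the 16 RNA-seq libraries. The hepatocytes were wild-type primary cells from liver, and the wild-type animals were male C57BL/6J mice of 8 to 12 weeks. In DMEM with 5% fetal bovine serum and insulin-transferrin-selenium, the cells were left untreated or were exposed overnight to 10 mM sodium itaconate, to a lipid mixture diluted 10-fold, or to both. The lipid mixture holds arachidonic, linoleic, myristic, oleic, palmitic and stearic acid with cholesterol. Each treatment had 4 libraries, lettered A to D, and each letter had 1 library of every treatment. The labels do not say whether the letters stand for separate mice or cultures, so p-values measure only the spread between these libraries. No gene was deleted in any group, and the cells were cultured outside the animal.

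Itaconate is a dicarboxylic acid made from the tricarboxylic acid cycle intermediate cis-aconitate by the enzyme ACOD1. It is best known from activated macrophages, where it inhibits succinate dehydrogenase and activates the antioxidant factor NRF2, and it also inhibits TET enzymes, which oxidise methylated cytosine. The 4 genes have separate roles. *Dppa3* (also called Stella or PGC7) encodes a maternal factor of oocytes, early embryos and germ cells that protects methylated DNA from TET-driven oxidation and keeps the maintenance factor UHRF1 away from chromatin. *Olfml2b* encodes a secreted protein of the extracellular matrix with an olfactomedin domain. *Rin1* encodes an effector of RAS that acts as an exchange factor for the endosomal GTPase RAB5 and activates ABL kinases. *Serpinb6a* encodes an intracellular clade B serpin that inhibits serine proteases, cathepsin G among them.

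The positions below are those of GENCODE M21 on GRCm38. *Dppa3* (ENSMUSG00000046323.8) lies on chr6:122626410-122630272 on the plus strand, with 4 exons and 892 exonic bases. *Olfml2b* (ENSMUSG00000038463.8) lies on chr1:170644532-170682789 on the plus strand, with 8 exons and 3095 exonic bases in 1 transcript. *Rin1* (ENSMUSG00000024883.8) lies on chr19:5050481-5057071 on the plus strand, with 13 transcripts, 5 of them coding, and 4820 exonic bases. *Serpinb6a* (ENSMUSG00000060147.15) lies on chr13:33917918-34002794 on the minus strand, with 17 transcripts, 13 of them coding, and 5409 exonic bases. Counts of genes with near copies depend on how reads were shared out between them. For *Dppa3*, 16.5% of the 50-base words in its transcripts also occurred in another gene, mainly *Dppa3-ps*, which had at most 9 counts in any library. *Dppa3* had counts that were not whole numbers in 6 of 16 libraries. That share was 0% for *Olfml2b*, 0.98% for *Rin1* and 0.751% for *Serpinb6a*, and all counts of these 3 genes were whole.

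The start regions of *Olfml2b*, *Rin1* and *Serpinb6a* are shown because *Rin1* and *Serpinb6a* rose with lipid while *Olfml2b* fell, as tested below. They come from RefSeq (GRCm38.p6), cover 250 bases before to 50 after each annotated start, and run along the gene's strand. The table used held windows for 3 of the 4 genes, 4 windows in all, and none for *Dppa3*. Capitals mark motifs found on either strand among 8 that were searched. The promoter boxes were the TATA box with the letters TATAAA, the GC box with the letters GGGCGG and the CCAAT box. The factor motifs were the E-box with the letters CACGTG, the core of the antioxidant response element with TGACNNNGC, the AP-1 motif with TGANTCA, the C/EBP core with TTNNGNAA and the core of the interferon-stimulated response element.
Olfml2b, chr1:170644282-170644581, plus strand: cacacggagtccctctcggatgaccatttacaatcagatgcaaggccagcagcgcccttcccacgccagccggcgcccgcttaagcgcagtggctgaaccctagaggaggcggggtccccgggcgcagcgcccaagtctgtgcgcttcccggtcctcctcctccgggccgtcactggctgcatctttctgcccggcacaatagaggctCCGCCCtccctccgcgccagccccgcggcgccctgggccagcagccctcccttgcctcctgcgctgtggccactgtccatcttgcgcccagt
Rin1, chr19:5050565-5050864, plus strand: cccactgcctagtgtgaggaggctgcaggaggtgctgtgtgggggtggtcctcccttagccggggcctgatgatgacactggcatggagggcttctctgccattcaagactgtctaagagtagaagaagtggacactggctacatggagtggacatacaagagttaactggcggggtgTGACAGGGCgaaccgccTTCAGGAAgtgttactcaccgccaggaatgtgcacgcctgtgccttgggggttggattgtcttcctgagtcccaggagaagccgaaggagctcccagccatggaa
Serpinb6a, inner start, chr13:33936034-33936333, minus strand: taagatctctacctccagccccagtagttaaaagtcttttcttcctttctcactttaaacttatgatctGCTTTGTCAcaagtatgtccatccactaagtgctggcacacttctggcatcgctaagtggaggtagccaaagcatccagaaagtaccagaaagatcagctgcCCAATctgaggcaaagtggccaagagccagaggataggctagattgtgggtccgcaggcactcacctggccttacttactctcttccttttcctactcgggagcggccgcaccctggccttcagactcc
Serpinb6a, outer start, chr13:34002745-34003044, minus strand: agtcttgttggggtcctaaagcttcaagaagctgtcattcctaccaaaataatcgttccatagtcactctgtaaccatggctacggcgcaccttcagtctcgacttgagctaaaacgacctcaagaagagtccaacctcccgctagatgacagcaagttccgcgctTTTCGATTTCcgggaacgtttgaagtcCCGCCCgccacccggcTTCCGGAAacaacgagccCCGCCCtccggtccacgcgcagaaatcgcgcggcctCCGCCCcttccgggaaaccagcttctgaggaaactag
The *Olfml2b* window held 1 GC box, 42 bases before the start. The *Rin1* window held 1 core of the antioxidant response element and 1 C/EBP core. The outer *Serpinb6a* window held 3 GC boxes, 1 core of the interferon-stimulated response element and 1 C/EBP core, whose letters read the same on both strands. The inner *Serpinb6a* window held 1 CCAAT box and 1 core of the antioxidant response element, on the opposite strand. Of all 32851 windows, 35.7% held a GC box, 40.7% a C/EBP core, 37.4% a CCAAT box, 12.4% the antioxidant core and 3.44% the interferon core, so most of these motifs are common. No TATA box, E-box or AP-1 motif was found in the 4 windows, against 13.6%, 7.15% and 7.81% of all windows. *Olfml2b* and the outer *Serpinb6a* start were rich in CG dinucleotides, with 25 each, more than in 81.6% of all windows. *Rin1* held 7 and the inner *Serpinb6a* start 5, near or below the median of 7. A motif match is a description of the letters and says nothing about which factor binds there.

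Library totals ran from 22346049 to 35512004 expected counts with a median of 27719372. The 4 genes are of modest abundance and had 101 to 1234 counts in a library, so levels rested on at least 101 counts. Per exonic length, in TPM (counts divided by the exonic bases of a gene and scaled to the same sum in each library), untreated hepatocytes held a mean of 22.5 TPM of *Dppa3*, 19.0 of *Olfml2b*, 5.24 of *Rin1* and 5.15 of *Serpinb6a*. With lipid these TPM means were 15.7, 14.1, 11.1 and 14.4 in the same order, so the gap in TPM between the pairs was wide in untreated and narrow in lipid-treated cells. The gap rests on the exonic bases of all transcripts of a gene, not on the length of those expressed. In CPM the untreated means were 7.81, 22.7, 9.85 and 10.8 in the same order, with *Dppa3* the lowest. The cells carried their label: all 12 hepatocyte markers reached 1 CPM and summed to between 35500 and 61700 CPM in a library. Markers of other liver cells were far lower in sum: 10 of 12 macrophage and Kupffer cell markers, 7 of 10 endothelial, 3 of 8 cholangiocyte, 2 of 14 stellate cell and fibroblast and 0 of 12 leukocyte markers reached a mean of 1 CPM over the 16 libraries. Their sums were 168 to 337 CPM for macrophages, 20.8 to 42.6 for endothelial cells, 343 to 1180 for cholangiocytes, 17.3 to 26.7 for stellate cells and 0.541 to 1.99 for leukocytes. The cholangiocyte marker *Cftr* and the leukocyte marker *Nkg7* were at 0 in all 16 libraries. In bulk samples, fewer cells of a type and less RNA per cell cannot be told apart.

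*Dppa3* was higher with itaconate in every letter, with and without lipid. Untreated libraries A to D held 9.31, 11.4, 7.00 and 3.60 CPM, and itaconate-treated libraries held 17.4, 14.5, 11.7 and 7.02 CPM. The group ranges overlapped, and D was the lowest library in each treatment. Lipid-treated libraries held 4.91, 5.86, 6.03 and 3.74 CPM, against 14.5, 12.8, 10.8 and 5.69 CPM with lipid + itaconate. Here only the D library with both agents fell within the range of the lipid group. The group means were 7.81 ± 3.33 CPM (SD, n = 4) untreated, 12.7 ± 4.44 with itaconate, 5.13 ± 1.05 with lipid and 10.9 ± 3.80 with both. From high to low, the order of levels was itaconate, lipid + itaconate, untreated, lipid. The ranges of each pair of neighbours in that order overlapped, and only the last step (2.68 CPM) exceeded the pooled SD of its groups (2.47 CPM). The pooled SD takes no account of the letters. Within letters, itaconate was above lipid + itaconate in 4 of 4 and lipid + itaconate above untreated in 4 of 4. Untreated was above lipid in 3 of 4. With the letter in the model, the itaconate difference was 0.72 on the log2 scale (SE 0.142, 1.64-fold) without lipid and 1.04 (SE 0.149, 2.05-fold) with lipid. By size these placed *Dppa3* at rank 92 and rank 25 of the 11675 genes tested. Averaged over the treatments, *Dppa3* was 11.5 CPM in letter A, 11.1 in B, 8.88 in C and 5.01 in D, a range close to that of the treatment means.

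*Olfml2b* shared that direction. Its untreated libraries A to D held 15.1, 24.6, 27.4 and 23.9 CPM, and the itaconate-treated libraries held 25.4, 32.3, 40.0 and 35.5 CPM. Every letter was higher with itaconate, while the ranges overlapped through library A. With lipid the values were 9.86, 16.1, 19.7 and 18.5 CPM, and with lipid + itaconate 24.7, 33.2, 25.1 and 22.7 CPM, with no overlap between these groups. The means were 22.7 ± 5.33 CPM (SD, n = 4) untreated, 33.3 ± 6.16 with itaconate, 16.0 ± 4.39 with lipid and 26.4 ± 4.61 with both. The order was therefore the one seen for *Dppa3*, and neighbours in it overlapped at every step. The step from lipid + itaconate to untreated (3.70 CPM) was within the pooled SD (4.99 CPM), and the other steps of 6.84 and 6.71 CPM exceeded theirs (5.45 and 4.88 CPM). Within letters, the steps from high to low held in 3, 2 and 4 of 4 letters. The itaconate difference was 0.56 on the log2 scale (SE 0.129, 1.47-fold) without lipid and 0.76 (SE 0.134, 1.69-fold) with lipid, at ranks 200 and 85 by size. Unlike *Dppa3*, *Olfml2b* was lowest in letter A, at 18.7 CPM over the treatments against 25.2 to 28.1 in the other letters.

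*Rin1* differed the other way and was lower with itaconate in every letter. Untreated libraries held 13.0, 10.5, 7.48 and 8.41 CPM, and itaconate-treated libraries held 8.47, 5.61, 3.91 and 6.13 CPM. These ranges overlapped slightly, at library A of the itaconate group. Lipid-treated libraries held 25.0, 19.2, 15.3 and 19.1 CPM, against 8.92, 7.77, 11.6 and 11.9 CPM with lipid + itaconate, with no overlap. The means were 9.85 ± 2.46 CPM (SD, n = 4) untreated, 6.03 ± 1.88 with itaconate, 19.7 ± 4.00 with lipid and 10.0 ± 2.02 with both. In the order lipid, lipid + itaconate, untreated, itaconate, the middle groups did not differ beyond their spread (0.198 CPM against a pooled SD of 2.25 CPM). The other steps were 9.61 CPM against a pooled SD of 3.17 CPM and 3.82 CPM against 2.19 CPM. Hepatocytes given both agents thus held about as much *Rin1* as untreated ones. The itaconate difference was -0.71 on the log2 scale (SE 0.184, 1.64-fold lower) without lipid and -0.94 (SE 0.171, 1.91-fold lower) with lipid, at ranks 95 and 36 by size.

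*Serpinb6a* was lower with itaconate in every letter, and it had the smallest coefficient of variation of the 4 genes in each treatment but lipid + itaconate. Untreated libraries held 11.5, 10.3, 10.3 and 11.1 CPM, a coefficient of variation of 5.58%, and itaconate-treated libraries held 9.05, 7.42, 5.98 and 8.00 CPM. Lipid-treated libraries held 33.9, 27.5, 24.6 and 28.6 CPM, and libraries with both agents held 18.3, 13.9, 14.0 and 20.1 CPM. No 2 of the 4 groups overlapped. The gaps between groups with and without itaconate are those the gene was picked for. How many of all genes tested show such gaps was not counted, here or for *Olfml2b* and *Rin1* above. The means were 10.8 ± 0.603 CPM (SD, n = 4) untreated, 7.61 ± 1.28 with itaconate, 28.7 ± 3.89 with lipid and 16.6 ± 3.10 with both. The order was lipid, lipid + itaconate, untreated, itaconate, as for *Rin1*, and here each step (12.1, 5.76 and 3.20 CPM) exceeded the pooled SD of its groups (3.52, 2.24 and 1.00 CPM). The itaconate difference was -0.52 on the log2 scale (SE 0.0909, 1.43-fold lower) without lipid and -0.79 (SE 0.0821, 1.73-fold lower) with lipid, at ranks 255 and 65 by size. With both agents *Serpinb6a* stayed above the untreated level in every letter, which *Rin1* did in only 2 of 4 letters.

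**Figure D1:**
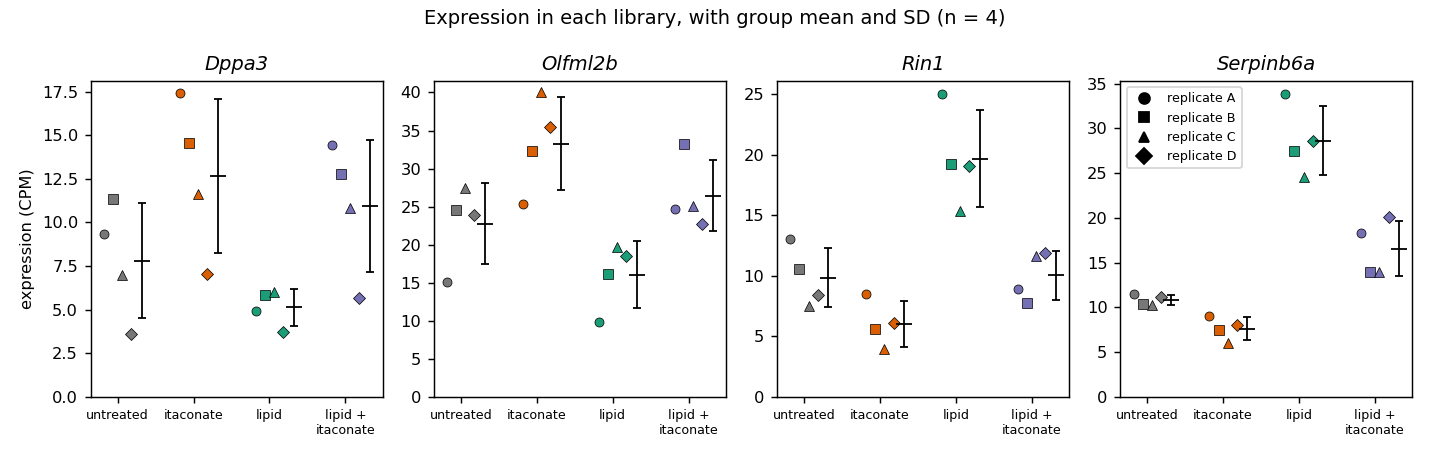
Level of each of the 4 genes (vertical axis, CPM from 0) in the 16 libraries by treatment (horizontal axis), with points for libraries A to D and the group mean ± SD (n = 4). *Dppa3* and *Olfml2b* have their highest means with itaconate (12.7 and 33.3 CPM) and their lowest with lipid (5.13 and 16.0 CPM), and *Rin1* and *Serpinb6a* have their highest with lipid (19.7 and 28.7 CPM) and their lowest with itaconate (6.03 and 7.61 CPM).

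Placed side by side, the 2 itaconate differences had the same sign in all 4 letters for each gene. The model estimate of each gene was larger in size with lipid. Within letters, the difference was larger with lipid in 3 of 4 for *Dppa3* and for *Rin1*. It was larger in 2 of 4 for *Olfml2b* and in 4 of 4 for *Serpinb6a*. With minus without lipid, the log2 values were 0.322 (SE 0.205) for *Dppa3* and 0.199 (SE 0.185) for *Olfml2b*. They were -0.225 (SE 0.251) for *Rin1* and -0.276 (SE 0.122) for *Serpinb6a*. The with-lipid differences were uneven across letters. For *Dppa3* they were 1.56, 1.12, 0.84 and 0.60 on the log2 scale in letters A to D. For *Olfml2b* they were 1.33, 1.05, 0.35 and 0.30, for *Rin1* -1.49, -1.30, -0.40 and -0.69, and for *Serpinb6a* -0.89, -0.98, -0.81 and -0.51. In all 4 genes the differences in letters A and B were thus larger than in letter D. Across the 9643 genes of at least 5 CPM in that calculation, the SD of the within-letter itaconate difference with lipid was 0.27 in A, 0.27 in B, 0.26 in C and 0.21 in D, so letter D also had the smallest spread over all genes, and the part of this in the 4 genes was not tested. Without lipid, the differences in letters A to D were 0.90, 0.36, 0.73 and 0.96 for *Dppa3* and 0.75, 0.39, 0.55 and 0.57 for *Olfml2b*. They were -0.62, -0.90, -0.93 and -0.46 for *Rin1* and -0.35, -0.48, -0.78 and -0.47 for *Serpinb6a*, so no letter had the largest difference in all 4 genes. The excess with lipid was not tested in these genes, which were picked for their itaconate differences.

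**Figure D2:**
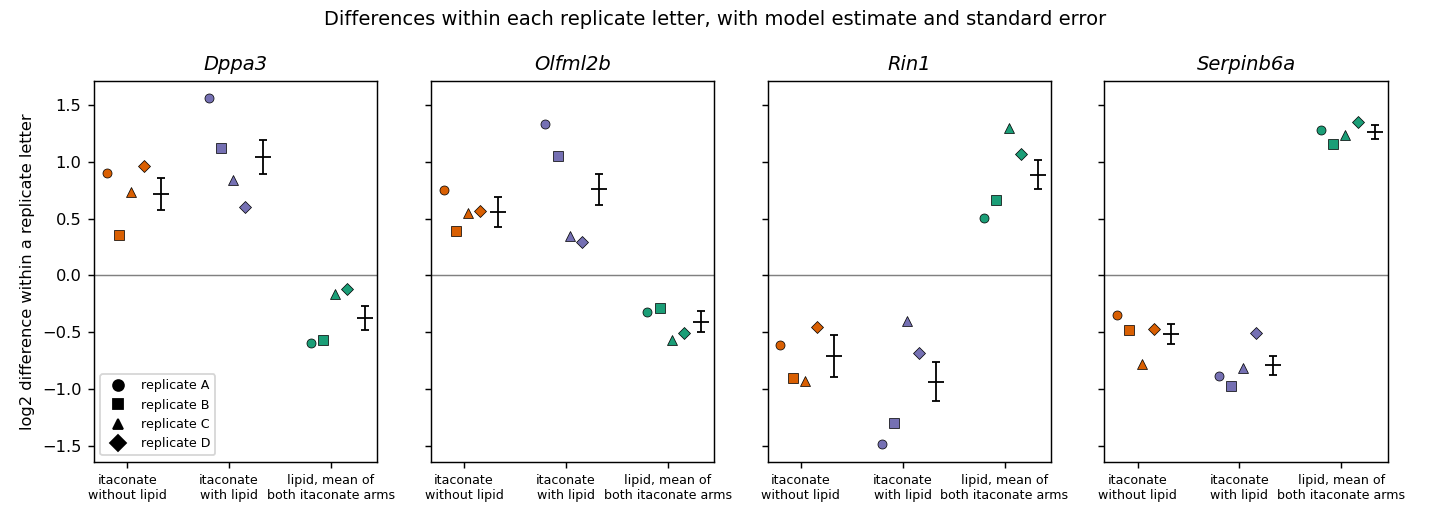
Log2 differences of the 4 genes for itaconate without lipid, itaconate with lipid and lipid averaged over itaconate, with points for the differences within letters A to D and black bars for the edgeR estimate ± standard error. The itaconate estimates are above 0 for *Dppa3* (0.72 and 1.04) and *Olfml2b* (0.56 and 0.76), below 0 for *Rin1* (-0.71 and -0.94) and *Serpinb6a* (-0.52 and -0.79), and the lipid estimates have the opposite sign in each gene.

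As background to these values, edgeR's quasi-likelihood test with Benjamini-Hochberg adjustment over all 11675 genes called 573 genes (4.91%) for itaconate against untreated, 229 higher (1.96%) and 344 lower (2.95%). It called 301 genes (2.58%) for lipid + itaconate against lipid, 154 higher (1.32%) and 147 lower (1.26%). A gene was called at an adjusted p under 0.05. Without the letter in the model the counts were 23 and 9. The median absolute log2 difference over all genes was 0.09 without lipid and 0.08 with lipid, and 24 and 31 genes reached 1 in absolute size. *Dppa3* with lipid was thus among the few beyond 1, and the other values of the 4 genes lay between 0.52 and 0.94 in absolute size. Leaving out 1 library gave 0.87 (without lipid A) to 1.17 (without lipid D) for *Dppa3* with lipid, so its place beyond 1 depended on single libraries. The interferon-response genes, from which the 4 genes were kept apart, were counted for comparison: of 28 tested, 25 fell with itaconate alone (median -0.67) and 11 with lipid present (median -0.30), and none rose. The interaction of itaconate and lipid called 1 gene (0.00857%), *Cxcl10*, and is not tested in the 4 genes.

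The effect of lipid could be tested in the 4 genes, because the mean of both lipid groups minus the mean of both groups without lipid is orthogonal to the itaconate differences used to pick them. All 4 genes passed, against 61.4% of all genes tested (31.0% higher and 30.4% lower), so passing is common in this comparison. *Serpinb6a* rose by 1.26 on the log2 scale (SE 0.0613, 2.39-fold, edgeR with Benjamini-Hochberg adjusted p = 2.9e-10), higher in 4 of 4 letters and at rank 107 of 11675 by size. *Rin1* rose by 0.89 (SE 0.126, 1.85-fold, edgeR adjusted p = 1.82e-05), higher in 4 of 4 letters and at rank 364. *Olfml2b* fell by 0.41 (SE 0.0927, 1.33-fold, edgeR adjusted p = 0.00128), lower in 4 of 4 letters and at rank 2123. *Dppa3* fell by 0.38 (SE 0.103, 1.3-fold, edgeR adjusted p = 0.00492), lower in 4 of 4 letters and at rank 2464. The median absolute log2 lipid difference over all genes was 0.18, so the rises of *Serpinb6a* and *Rin1* were large for this comparison and the falls of the other genes moderate. Without the letter in the model the *Dppa3* difference was -0.40 with an edgeR adjusted p of 0.161, and the other 3 genes still passed.

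**Figure D3:**
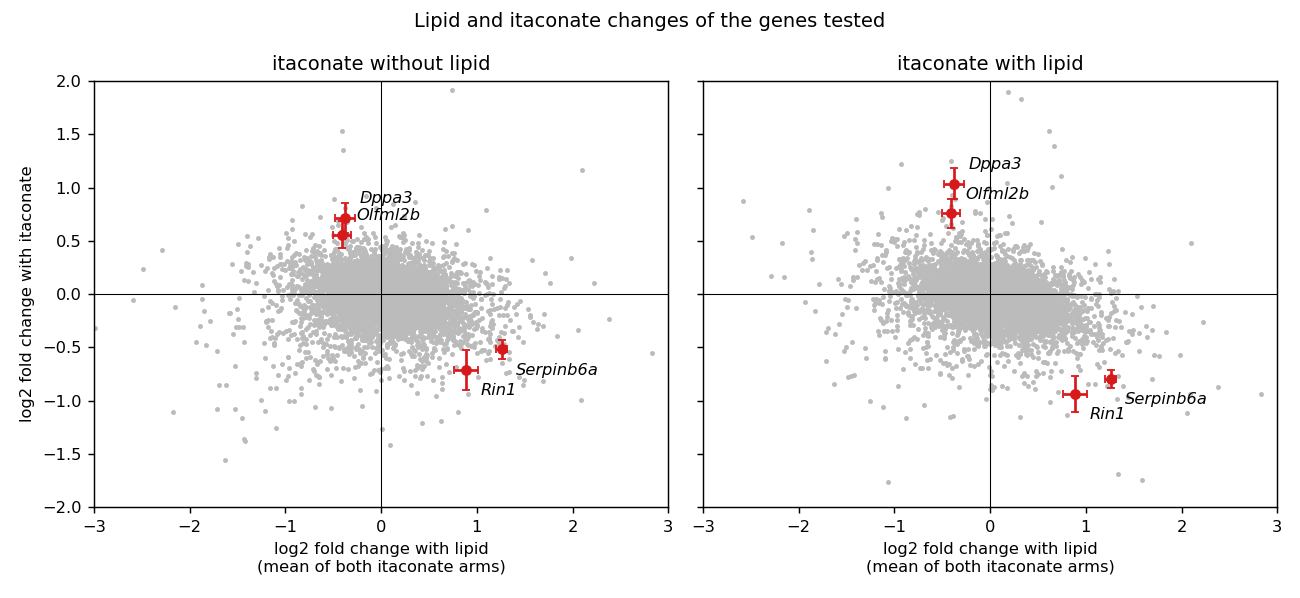
Log2 difference for lipid averaged over itaconate (horizontal axis) and for itaconate (vertical axis) without lipid (left) and with lipid (right), with a grey point for each gene tested, red points ± standard error for the 4 genes and 9 genes outside the axes. *Dppa3* (lipid -0.38, itaconate 0.72 and 1.04) and *Olfml2b* (-0.41, 0.56 and 0.76) lie in the upper left of both panels, and *Rin1* (0.89, -0.71 and -0.94) and *Serpinb6a* (1.26, -0.52 and -0.79) in the lower right.

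The lipid difference of *Rin1* and *Serpinb6a* was positive in 4 of 4 letters in both backgrounds. Without itaconate it was 1.00 (SE 0.172) for *Rin1* and 1.40 (SE 0.0852) for *Serpinb6a*, and with itaconate it was 0.78 (SE 0.183) and 1.12 (SE 0.0883). For *Dppa3* the corresponding values were -0.54 (SE 0.153) and -0.21 (SE 0.137), and for *Olfml2b* -0.51 (SE 0.135) and -0.31 (SE 0.127). With itaconate the letters A to D were uneven, at 0.07, 0.47, 1.57 and 0.95 for *Rin1* and -0.04, 0.04, -0.67 and -0.64 for *Olfml2b*. *Dppa3* without itaconate was lower with lipid in 3 of 4 letters. These simple differences share libraries with the itaconate differences and carry no test here. The highest and lowest group means were 2.48-fold apart for *Dppa3*, 2.08-fold for *Olfml2b*, 3.27-fold for *Rin1* and 3.77-fold for *Serpinb6a*. Marker sums of other cell types moved with some of these groups. The macrophage sum ran from 190 to 305 CPM untreated, 168 to 258 with itaconate, 238 to 337 with lipid and 219 to 325 with both, and its medians (248, 231, 306 and 282 CPM) had the order of the *Rin1* and *Serpinb6a* levels. *Cd68*, a lysosomal protein gene with a mean of 218 CPM, made up most of that sum and rose by 0.51 with lipid (edgeR adjusted p = 9.08e-09). The endothelial sum ran from 26.6 to 41.0 CPM untreated, 20.8 to 31.8 with itaconate, 34.5 to 42.6 with lipid and 24.3 to 35.8 with both, highest with lipid and lowest with itaconate by the median, as the levels of *Rin1* and *Serpinb6a* were. Of the 7 endothelial markers tested, 0 were called for itaconate in either background by edgeR, and 2 rose and 1 fell with lipid. The cholangiocyte sum was 612 to 1180 CPM untreated, 585 to 1060 with itaconate, 343 to 618 with lipid and 364 to 653 with both, and its 3 tested markers fell with lipid, as *Dppa3* and *Olfml2b* did. Of the 12 hepatocyte markers, 10 fell and 1 rose with lipid, and 0 were called for itaconate. Of the 10 macrophage markers tested, *Lyz2* rose by 0.50 and *Cd68* fell by 0.24 with itaconate alone (edgeR adjusted p = 0.0166 and 0.0108), *C1qb* fell by 0.66 with itaconate in lipid-treated cells (edgeR adjusted p = 0.0279), and 8 fell and 1, *Cd68*, rose with lipid. These lipid counts stand against 30.4% of all genes lower and 31.0% higher. The itaconate counts stand against 4.91% of all genes called without lipid and 2.58% with lipid, so few calls are likely in lists this short. Without the letter, *Lyz2*, *Cd68* and *C1qb* did not pass for itaconate (edgeR adjusted p = 0.279, 0.576 and 0.345). Leaving out 1 library ended the call of *Lyz2* for untreated B and D and itaconate A, B and C (up to 0.0718), of *Cd68* for itaconate C (0.0541) and of *C1qb* for lipid A, B and C and lipid + itaconate A and D (up to 0.0784). The part of these cell types in the results was not tested.

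Across the 16 libraries, after subtraction of each letter's mean, log2 CPM of *Dppa3* and *Olfml2b* had a Pearson r of 0.91, and *Rin1* and *Serpinb6a* one of 0.91. The pairs across these were negative, from -0.72 for *Dppa3* and *Serpinb6a* to -0.94 for *Olfml2b* and *Rin1*. These libraries share the treatments that picked the genes. With the treatment means also removed, r was 0.48 for *Dppa3* and *Olfml2b*, 0.44 for *Rin1* and *Serpinb6a*, -0.76 for *Olfml2b* and *Rin1* and -0.46 for *Olfml2b* and *Serpinb6a*, and it was 0.10 and -0.18 for *Dppa3* with *Rin1* and *Serpinb6a*. The values are descriptions over 16 libraries of shared letters.

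The genes with the most similar profile were chosen by the highest Pearson r of log2 CPM, after subtraction of the letter means, among 9319 named genes of at least 5 CPM. For *Dppa3* these were *Paip2* (r = 0.95), a regulator of poly(A)-binding protein, *Ccp110* (0.92), a centriole protein, and *Stag2* (0.92), a subunit of cohesin. For *Olfml2b* they were the kinase gene *Oxsr1* (0.96), the poly(A) polymerase gene *Tent4b* (0.96) and the ubiquitin ligase gene *Arih2* (0.95). For *Rin1* they were *Stx4a* (0.97), a syntaxin of the plasma membrane, *Nup210* (0.96), a nucleoporin, and *Manea* (0.96), a Golgi mannosidase. For *Serpinb6a* they were *Nop9* (0.99), a nucleolar RNA-binding protein, *Rab14* (0.99), a GTPase of endosomes and the Golgi, and *Plce1* (0.98), a phospholipase C. Their log2 differences for itaconate without lipid ran from -0.39 for *Nup210* to 0.30 for *Tent4b*, smaller than those of the 4 genes. *Rab14* had -0.05, against -0.52 for *Serpinb6a*, and *Paip2* had 0.09, against 0.72 for *Dppa3*. The treatments that picked the genes were not removed from these r values. A high r here thus describes a like pattern over the treatments and not a like size.

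Genes that act with *Dppa3* were examined next. The DNA methylation list held 17 genes, 14 of them tested. With itaconate alone 1 rose and 0 fell (median 0.06, against -0.00189 over all genes), with lipid present 1 rose and 0 fell (median 0.07), and with lipid 4 rose and 5 fell. Over all genes, 4.91%, 2.58% and 61.4% were called in these comparisons. *Mbd1*, which encodes a methyl-CpG-binding repressor, rose by 0.24 with itaconate alone (SE 0.051, edgeR adjusted p = 0.0136). *Uhrf1*, the maintenance factor that DPPA3 binds, rose by 0.55 with itaconate in lipid-treated cells (SE 0.135, edgeR adjusted p = 0.0428) and had a difference of -0.03 without lipid (edgeR adjusted p = 0.932). Its interaction with lipid was 0.58 with an edgeR adjusted p of 0.39, so the difference between the backgrounds did not pass. The *de novo* methyltransferase gene *Dnmt3b* had itaconate values of -0.45 and -0.52 (edgeR adjusted p = 0.221 and 0.126), and with lipid it rose by 1.14 (edgeR adjusted p = 2.61e-06). *Dnmt3a* rose by 0.88 with lipid (edgeR adjusted p = 2.2e-09). Of 19 genes of the germ line and pluripotency, where *Dppa3* is best known, only *Tfcp2l1* and *Klf4* reached a mean of 1 CPM over the 16 libraries, while *Dppa2* (1.43 CPM) and *Prdm1* (1.14 CPM) averaged more than that in untreated cells. *Tfcp2l1* and *Klf4* were not called for itaconate by edgeR, and 6 genes, among them *Nanog*, *Sox2*, *Zfp42* and *Dppa4*, were at 0 in all 16 libraries. The other 11 had counts but averaged at most 0.834 CPM over the 16 libraries.

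The olfactomedin family of *Olfml2b* had 2 of 12 listed genes tested, *Olfml1* and *Adgrl2*. Neither was called for itaconate, and *Olfml1* rose by 0.93 with lipid (edgeR adjusted p = 2.85e-06), where *Olfml2b* fell. The list of RIN proteins and the RAB5 pathway held 23 genes, 22 of them tested. With itaconate alone 1 rose and 1 fell (median 0.01), with lipid present 0 were called, and with lipid 5 rose and 9 fell, against 4.91%, 2.58% and 61.4% of all genes. *Rabep1*, which encodes the RAB5 effector rabaptin-5, rose by 0.18 (SE 0.0452, edgeR adjusted p = 0.031) and *Rab31*, a GTPase of the RAB5 subfamily, fell by 0.26 (SE 0.0693, edgeR adjusted p = 0.0446). The itaconate values of the paralogues of *Rin1* did not pass and were -0.22 and -0.24 for *Rin2* and -0.075 and -0.041 for *Rin3*.

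Of 27 other clade B serpins, 3 were tested and 10 were at 0 in all 16 libraries. *Serpinb9*, an inhibitor of granzyme B, fell by 0.34 with itaconate alone (SE 0.0831, edgeR adjusted p = 0.0305) and had -0.22 with lipid present (edgeR adjusted p = 0.171). *Serpinb6b*, a close relative of *Serpinb6a*, fell by 0.66 with itaconate in lipid-treated cells (SE 0.137, edgeR adjusted p = 0.0221) and had -0.21 without lipid (edgeR adjusted p = 0.37). With lipid it fell by 0.43 (edgeR adjusted p = 0.000986), opposite to *Serpinb6a*, which rose. *Serpinb8* had -0.01 and -0.15 for itaconate and did not pass. Over the 5 lists of relatives, 43 genes were tested. Itaconate alone called 2 higher and 2 lower (9.3%, against 4.91% of all genes) and itaconate with lipid 1 higher and 1 lower (4.65%, against 2.58%), and lipid called 60.5% against 61.4%. These itaconate calls were sensitive to the model. Without the letter none of the 6 passed, with edgeR adjusted p between 0.219 and 0.404. Leaving out 1 library at a time ended the call of *Mbd1* in 2 of 16 fits, of *Serpinb6b* in 5, of *Serpinb9* in 6, of *Rabep1* in 7, of *Rab31* in 10 and of *Uhrf1* in 13, and the direction was kept in each. For *Mbd1* the libraries were untreated C and itaconate C (edgeR adjusted p = 0.0503 and 0.0782). For *Serpinb6b* they were lipid A, B and C and lipid + itaconate A and B, with an edgeR adjusted p of up to 0.107 and differences from -0.65 to -0.55. For *Serpinb9* they were untreated A to D and itaconate C and D, up to 0.12. For *Rabep1* they were untreated A to D and itaconate A, C and D, up to 0.135. *Rab31* held without lipid A, lipid + itaconate B, lipid C, lipid + itaconate C, untreated D or lipid D and passed without no other, up to 0.165. *Uhrf1* held only without itaconate A, itaconate C or lipid + itaconate C, with up to 0.125 otherwise.

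**Figure D4:**
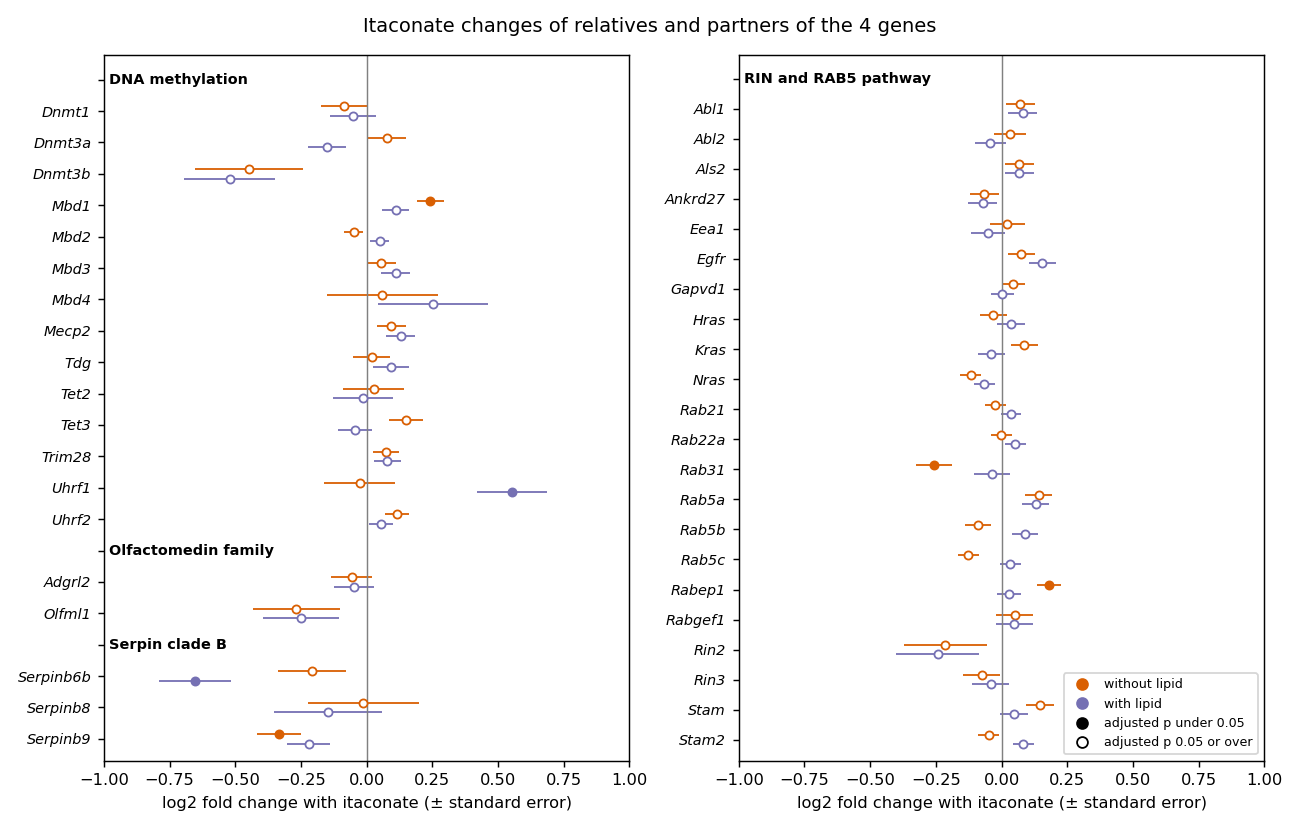
Log2 differences ± standard error (horizontal axis) of listed relatives of the 4 genes (rows) for itaconate without and with lipid, with filled points for an edgeR adjusted p under 0.05. The filled points are *Mbd1*, *Rabep1*, *Rab31* and *Serpinb9* without lipid and *Uhrf1* and *Serpinb6b* with lipid, and the 2 tested genes of the germ line list, neither filled, are not drawn.

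Most genomic neighbours of the 4 genes were not called for itaconate. Among the 3 nearest genes with at least 1 CPM on each side and any overlapping gene, 26 were tested. Itaconate alone called 2 higher and 3 lower (19.2%, against 4.91% of all genes), itaconate with lipid 0 higher and 2 lower (7.69%, against 2.58%), and lipid 61.5% against 61.4%. These counts include *Serpinb9* (lower with itaconate alone) and *Serpinb6b* (lower with lipid present), which lie 899961 and 938851 bases from *Serpinb6a* and were also counted among the relatives, so the shares overlap. Next to *Dppa3*, *Apobec1*, the cytidine deaminase gene of ApoB editing 23966 bases to its left, rose by 0.23 with itaconate alone (SE 0.0496, edgeR adjusted p = 0.0152) and had 0.15 with lipid (edgeR adjusted p = 0.135). Next to *Olfml2b*, *Atf6*, the gene of an endoplasmic reticulum stress sensor 21885 bases to its right, rose by 0.24 (SE 0.0509, edgeR adjusted p = 0.0134) and had 0.06 with lipid (edgeR adjusted p = 0.579). Next to *Rin1*, *Brms1* ended 564 bases before it on the same strand and had -0.12 (edgeR adjusted p = 0.257). *Yif1a*, a gene of Golgi transport, fell by 0.31 (SE 0.0852, edgeR adjusted p = 0.0455).

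*Serpinb6a* overlaps genes on the opposite strand, so that reads could be confused if strand was not used in counting. The setting is not given in the sources used here. *Ripk1*, a kinase gene of cell death signalling, starts 0.431 kb from the outer *Serpinb6a* start, and *Nqo2*, a quinone reductase gene, lies inside the *Serpinb6a* span. Neither was called for itaconate, with 0.07 for *Ripk1* (edgeR adjusted p = 0.409) and -2.98e-05 for *Nqo2* (edgeR adjusted p = 1) without lipid. With lipid *Ripk1* fell by 0.35 and *Nqo2* by 0.35 (edgeR adjusted p = 1.44e-07 and 3.66e-05), where *Serpinb6a* rose. The antisense gene *1110046J04Rik* had at most 3 counts in a library. On its right, the tubulin gene *Tubb2a* fell by 0.29 with itaconate alone (SE 0.0672, edgeR adjusted p = 0.022) and by 0.36 with lipid present (SE 0.0671, edgeR adjusted p = 0.0139). None of the neighbours' itaconate calls passed without the letter, with edgeR adjusted p from 0.1 to 0.39. Leaving out 1 library at a time ended them in 2 of 16 fits for *Atf6* (untreated C and itaconate C, up to 0.0673), 4 for *Apobec1* (untreated A and C, itaconate C and D, up to 0.0909) and 10 for *Yif1a* (up to 0.172). *Yif1a* held without lipid A, lipid + itaconate A, lipid B, lipid + itaconate B, lipid C or lipid + itaconate C. For *Tubb2a* 5 fits ended the call without lipid (untreated A and C, itaconate A, B and C, up to 0.111) and 2 with lipid (lipid A and lipid + itaconate A, up to 0.0748).

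**Figure D5:**
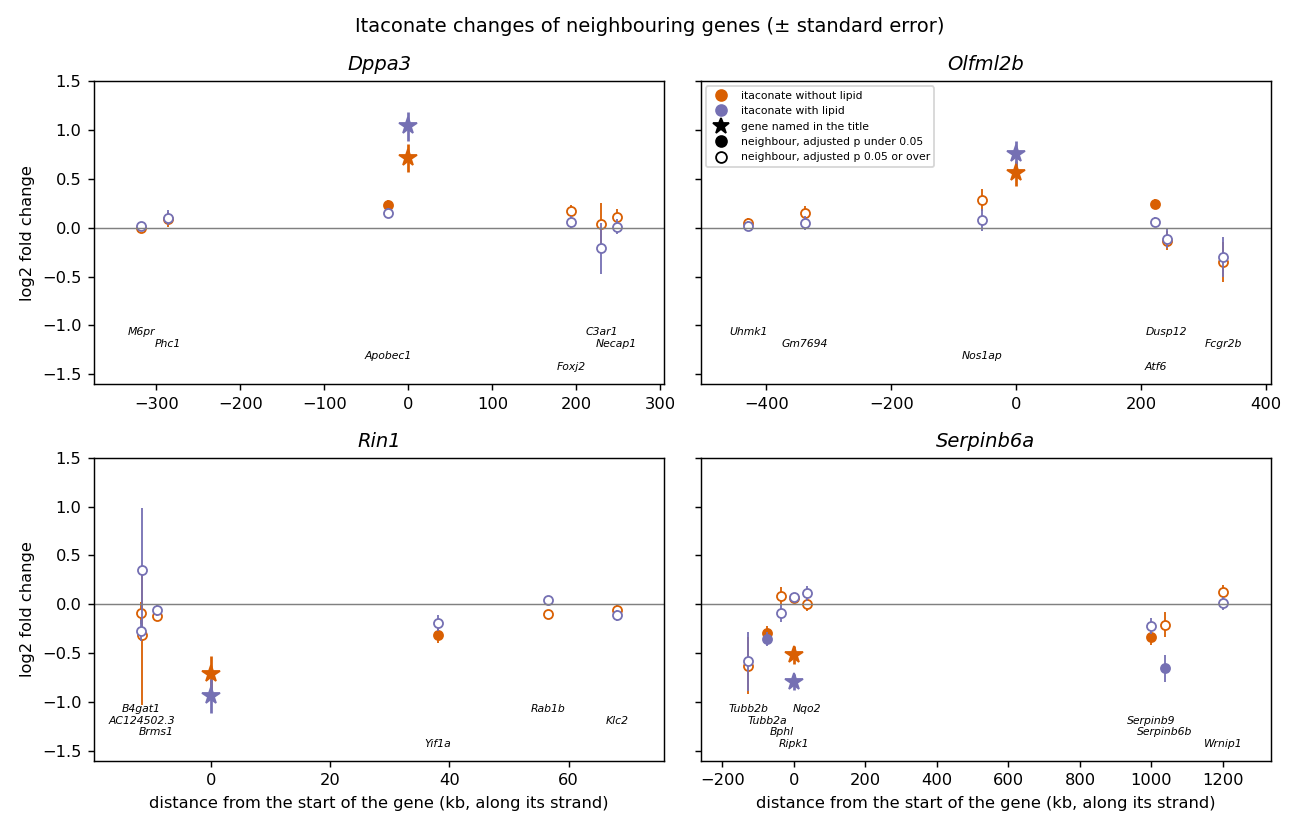
Log2 differences ± standard error for itaconate without and with lipid (vertical axis) of the genes nearest to each of the 4 genes, by distance between start sites along the gene's strand (horizontal axis, kb), with stars for the gene named in each title and filled circles for neighbours with an edgeR adjusted p under 0.05. Of 26 neighbours tested, 5 are filled without lipid and 2 with lipid.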

How the data were processed

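RNA-seq (stranded mRNA libraries, an Illumina NextSeq instrument) of 16 wild-type mouse hepatocyte libraries was used. Per the labels and the study's methods, the authors demultiplexed reads with bcl2fastq 2.20, trimmed them with Cutadapt 1.18, aligned them to mm10 with STAR 2.7.0f, checked them with Picard 2.18.26 and deposited RSEM 1.3.1 expected counts per gene, not normalized and with 5.41% of values not whole. The GENCODE release and the strand setting of RSEM are not given in the sources used here. The authors' later normalization and batch removal are not part of these values. All 55450 gene IDs were found in GENCODE M21.

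Expected counts were rounded, the 11675 genes averaging 1 CPM or more were kept and edgeR 4.0.16 (R 4.3.3, TMM, quasi-likelihood test) was fitted to all 16 libraries with treatment and letter. p-values were adjusted by Benjamini-Hochberg over all genes tested, with a threshold of 0.05. The SE is the log2 difference divided by the square root of F. CPM used TMM-scaled totals. The scripts were tested on simulated counts that held no letter effect, so that test says nothing about the letter in the model. Alternatives were no letter, RLE scaling, other filters, DESeq2 1.42.0, only the 8 libraries of a comparison, summed *Serpinb6* genes and leaving out each library. After subtraction of treatment means, libraries of the same letter deviated together (r from 0.144 to 0.469 over 24 pairs). Over 72 pairs of other letters r ran from -0.436 to 0.178, with a median of -0.114, so the ranges overlap. Subtracting treatment means by itself pushes the values of other letters down when those of the same letter are positive. The letter was kept as a block on the same-letter values.

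The 4 genes and all gene lists were chosen with earlier results of these data known. Other genes were named by rule: the 3 with the highest r to each gene, the 3 nearest on each side and any overlapping, listed genes with an adjusted p under 0.05 in an itaconate comparison (those of the interferon list are given as counts, not by name, since not all can be reported here), and tested clade B serpins. A few further listed genes were picked for naming by their values.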

Additional observations from a re-analysis of the deposited data

How the results depend on the processing

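Low counts limit the lists more than the 4 genes, since most listed germ line, olfactomedin and clade B serpin genes had too few counts to be tested. Of these, 6 germ line, 2 olfactomedin and 10 clade B serpin genes were at 0 in all 16 libraries. Whether depth set this limit was not tested. Under every alternative run, the direction of the 4 genes was kept in both itaconate comparisons and for lipid. For itaconate this was nearly fixed in advance, since the genes were picked for these differences in the same libraries. The itaconate difference without lipid ran from 0.633 to 0.867 for *Dppa3*, 0.502 to 0.629 for *Olfml2b* and -0.825 to -0.596 for *Rin1*. For *Serpinb6a* it ran from -0.554 to -0.423, the last value with the other *Serpinb6* genes added to it. With lipid the itaconate difference ran from 0.87 to 1.17 for *Dppa3*, 0.61 to 0.878 for *Olfml2b*, -1.17 to -0.744 for *Rin1* and -0.883 to -0.738 for *Serpinb6a*. The lipid difference ran from -0.441 to -0.297 for *Dppa3*, -0.483 to -0.347 for *Olfml2b* and 0.777 to 0.989 for *Rin1*. For *Serpinb6a* it ran from 0.924 to 1.29, against 1.21 to 1.29 when only single libraries were left out. The paired analysis with the letter as a replicate block is the one reported. Without the block, the lipid difference of *Dppa3* was -0.404 with an edgeR adjusted p of 0.161, the count of genes called was 23 in place of 573 for itaconate alone, 9 in place of 301 for itaconate with lipid and 0 in place of 1 for the interaction, and the other 3 lipid calls remained. With no filter these counts were 1091, 725 and 231, and with DESeq2 the counts for itaconate with lipid and for the interaction were 509 and 36. Fits restricted to the 8 libraries compared gave 1865 without and 13 with lipid, and RLE scaling and edgeR's own filter each gave 2 for the interaction. Leaving out 1 library gave 149 (without itaconate C) to 1047 (without lipid + itaconate C) genes for itaconate alone, 59 (without lipid + itaconate A) to 889 (without lipid + itaconate C) for itaconate with lipid, 6786 to 7236 for lipid and 0 to 8 for the interaction. Single calls were lost for *Rab31* and *Yif1a* with edgeR's own filter (adjusted p = 0.0553 each), for *Rabep1* with no filter (0.052), and for *Uhrf1* (0.225), *Serpinb6b* (0.248) and *Tubb2a* and *C1qb* with lipid (0.225 each) with only 8 libraries, and *Mbd1* passed with lipid without lipid + itaconate C (0.163, edgeR adjusted p = 0.0471). The cause of these shifts was not tested.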
